A study of Homo sapiens with 6 samples.

Results

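The cell cycle and DNA replication genes examined here are 44 genes listed by name, from the cyclins and kinases of G1 to the motors and checkpoint proteins of mitosis. All 44 had at least 1 probe on the array, and their 58 probes were taken from 28264 in all; 41 of the 44 genes passed a filter on dim probes, which left 12350 of 19090 genes for testing. The arrays were made from the human tumour line H358, established from a bronchioalveolar carcinoma. In one derivative the labels name YAP(5SA), that is, the coactivator YAP with its inhibitory phosphorylation sites mutated, and in the other GFP, which they call the control. Each line received IL-1b, TNFa or vehicle for 60 min, with 1 array for each of the 6 conditions. The dose of both cytokines is labelled 10 g/ml, which is not a possible concentration here, and nothing says which promoter drives YAP(5SA), whether a line is 1 clone or whether cultures were separate. Both lines were kept in DMEM. A difference between the lines can hold anything else in which these 2 derivatives differ.

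A dividing cell passes from G1 into DNA synthesis when D-type and E-type cyclins, with their kinases CDK4, CDK6 and CDK2, inactivate the retinoblastoma protein and release E2F factors, which switch on replication genes. Later, the B-MYB and FOXM1 factors, acting with the MuvB complex, switch on the genes of G2 and mitosis. YAP, held in check by the Hippo kinases, is known as a growth regulator, and transcripts of both waves are commonly read as a measure of how many cells of a culture are cycling. The question put to these arrays was whether the line labelled YAP(5SA) carried more proliferation transcripts, and whether 60 min of cytokine moved them.

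The promoters of these genes were searched for words linked to the 2 waves. In RefSeq sequence of GRCh38.p14, 33 of the 44 genes had an entry, and the 250 bases before each listed start were read on both strands for the E2F core (the word TTCCCGC, the word TTGGCGC, the word TTCGCGC or the word TTGCCGC), the cell cycle homology region CHR (TTTGAA), the CCAAT box (CCAAT) and the core bound by TEAD, the DNA-binding partner of YAP (GGAATG). E2F words can overlap each other, and a gene with several starts counted once. An E2F core lay in 6 of 8 DNA replication genes and 3 of 14 genes of G2 and mitosis, against 13% of the 27305 genes of the table. The CHR lay in 9 of 14 genes of G2 and mitosis and 0 of 8 replication genes, against 16.1% of all genes. A CCAAT box was found in 13 of the 14 G2 and mitosis genes and 6 of the 8 replication genes, against 37% of all genes. The TEAD core was found in 3 of 33 genes, CCND3, MCM7 and CDKN2B, against 14.3% of all genes. These matches are letters in a window and not measured sites. The sequences below are of CCND3, which differed between the lines, of a replication gene with paired E2F words and of 2 mitotic genes with CCAAT boxes and a CHR. Each is printed 5′ to 3′ on the strand of its gene, ending at the base before the start, with the words found in capitals.
CCND3, chr6:41941809-41942058, minus strand: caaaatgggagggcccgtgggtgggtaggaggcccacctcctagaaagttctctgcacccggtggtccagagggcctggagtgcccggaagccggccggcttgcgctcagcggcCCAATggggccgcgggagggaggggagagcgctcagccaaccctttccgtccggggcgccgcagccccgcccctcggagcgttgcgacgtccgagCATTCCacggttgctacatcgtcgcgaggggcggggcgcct
MCM6, chr2:135876444-135876693, minus strand: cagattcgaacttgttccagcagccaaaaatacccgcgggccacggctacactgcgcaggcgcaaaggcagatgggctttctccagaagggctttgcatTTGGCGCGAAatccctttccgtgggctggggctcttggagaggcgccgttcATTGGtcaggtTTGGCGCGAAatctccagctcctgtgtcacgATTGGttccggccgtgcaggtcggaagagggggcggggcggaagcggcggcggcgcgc
CCNB2, chr15:59104896-59105145, plus strand: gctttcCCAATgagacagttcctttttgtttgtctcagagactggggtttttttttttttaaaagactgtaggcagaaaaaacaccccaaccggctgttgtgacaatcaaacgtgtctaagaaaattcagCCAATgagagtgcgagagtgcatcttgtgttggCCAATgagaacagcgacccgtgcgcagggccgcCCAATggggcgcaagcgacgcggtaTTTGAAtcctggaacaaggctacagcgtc
MKI67, chr10:128126424-128126673, minus strand: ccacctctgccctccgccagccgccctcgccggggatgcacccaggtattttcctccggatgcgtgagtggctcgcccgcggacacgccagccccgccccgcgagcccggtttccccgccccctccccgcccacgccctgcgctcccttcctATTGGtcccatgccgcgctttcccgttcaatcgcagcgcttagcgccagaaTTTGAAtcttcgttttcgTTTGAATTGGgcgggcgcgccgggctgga
In MCM6 each of the 2 longer runs of capitals joins 2 overlapping E2F words, and the 2 shorter runs are reversed CCAAT boxes. In MKI67 the last run joins a CHR and a reversed CCAAT box that share 1 base. CCND3 has 3 listed starts, and the one shown was chosen as the first with a CCAAT box, which lies 136 bases before the start. It also holds a reversed TEAD core 41 bases before the start.

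Few proliferation transcripts passed the test between the lines. Of the 41 genes tested, 1 was called higher in the YAP(5SA) line, the mitotic transcription factor FOXM1, and 1 was called lower, cyclin D3 (CCND3). These are 2 of 41 genes where 16.8% of all genes tested were called, 7.9% higher and 8.91% lower. The calls come from an additive limma model of line and treatment over all 12350 genes, with Benjamini-Hochberg adjustment at 0.05, on the log2(intensity + 16) scale used for all differences below. Because no condition was repeated, these p-values measure how far a difference varied over the other factor, pooled with a prior from all genes, and not a spread between cultures. The mean line difference, YAP(5SA) minus GFP, lay within 0.5 of 0 for 37 of the 41 genes and for 9750 of the 12350 genes tested. Its SE among the 41 genes was between 0.20 and 0.25.

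The median line difference of the 41 genes was 0.16, and that of all genes tested was -0.01. In the 3 pairs of arrays the median of the 41 genes was 0.08 under IL-1b, 0.14 under TNFa and 0.18 under vehicle, whereas the median of all genes was -0.07, 0.17 and -0.10. The TNFa pair thus put these genes level with all genes, and the other pairs put them slightly above. Counted by sign, 26 of 41 genes (63.4%) had a mean difference above 0, against 48.5% of all genes. They were higher in all 3 pairs for 14 genes (34.1%), against 22.5% of all genes, and lower in all 3 pairs for 5 genes (12.2%), against 21.4%. Centring each array on its median, in place of the deposited scaling, moved the median of the 41 genes to 0.25 and that of all genes to 0.08. The median of the 41 genes lay 0.17 above that of all genes under both scalings. Calls among the 41 genes became 4 higher and 1 lower. Calls over all genes became 1430 higher and 964 lower, where the deposited scaling gave 976 and 1101.

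**Figure D1:**
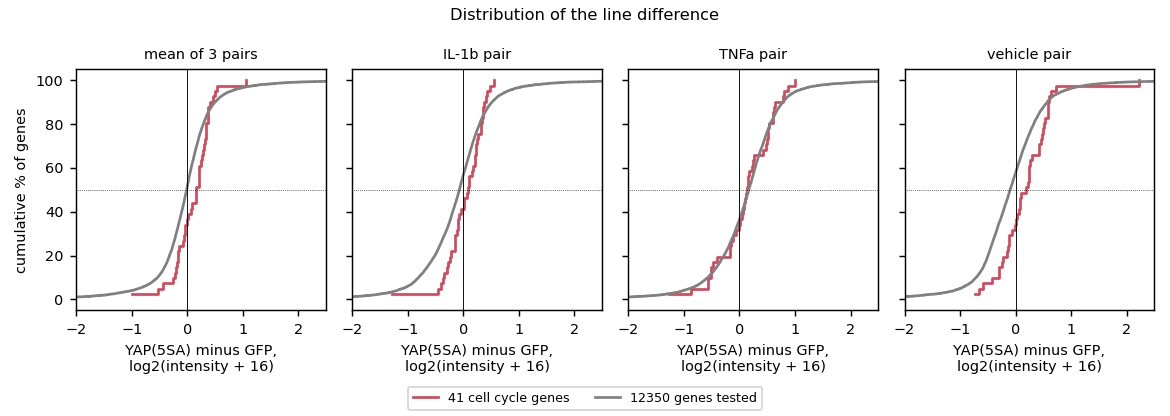
Cumulative share of genes (%) against the line difference, YAP(5SA) minus GFP, on the log2(intensity + 16) scale, for the 41 cell cycle genes and the 12350 genes tested, as the mean of 3 pairs and in each pair. The cell cycle curve lies to the right of the curve of all genes in the IL-1b and vehicle pairs and close to it in the TNFa pair, where the medians were 0.14 and 0.17.

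**Figure D2:**
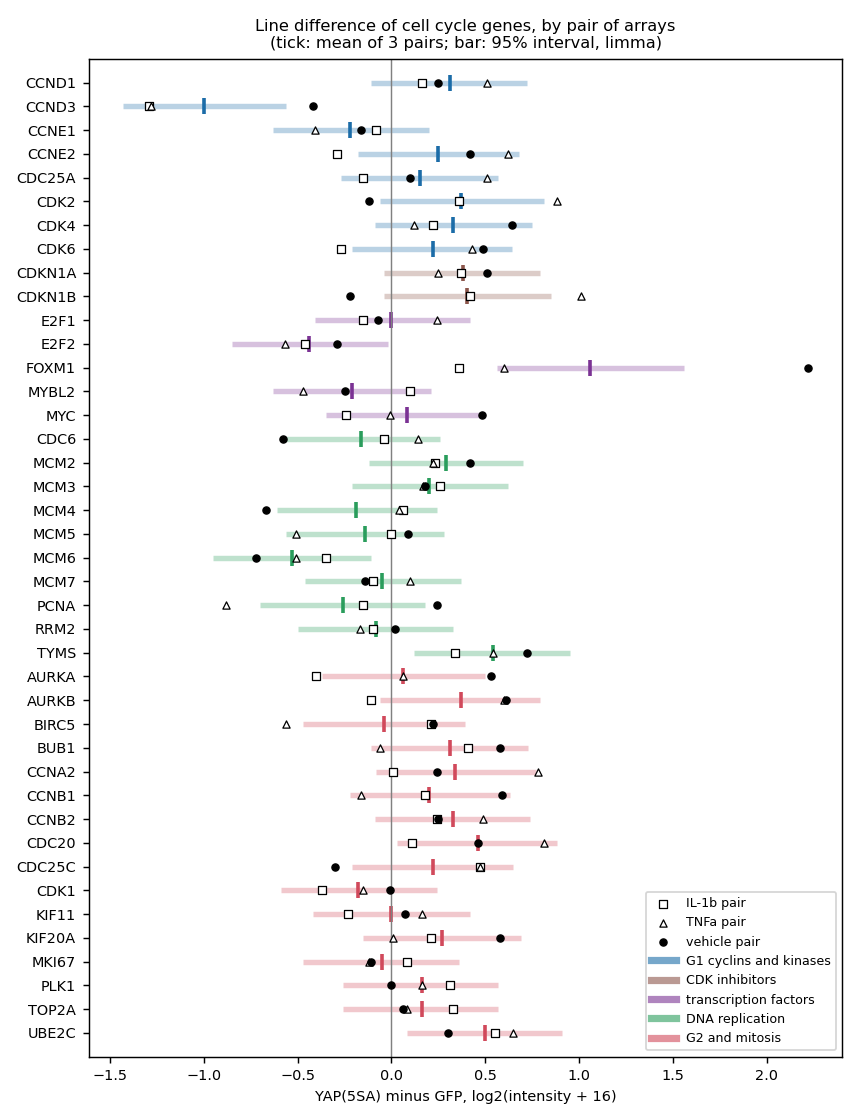
Line difference of each of the 41 genes, YAP(5SA) minus GFP, on the log2(intensity + 16) scale; symbols are the 3 pairs of arrays, the tick is their mean and the bar the 95% interval of limma. FOXM1 stands out through its vehicle pair (2.22) and CCND3 through its IL-1b and TNFa pairs (-1.29 and -1.28), while most intervals cover 0.

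Among the cyclins and kinases of G1, only CCND3 passed the test, and 8 of the 9 genes in this role could be tested. CCND3, which with CDK4 or CDK6 starts phosphorylation of the retinoblastoma protein, had intensities of 12635, 22603 and 30155 in YAP(5SA) cells under IL-1b, TNFa and vehicle, against 31018, 54793 and 40394 in GFP cells. All 3 YAP(5SA) readings lay below all 3 GFP readings, although the IL-1b reading of the GFP line came within a few percent of the vehicle reading of the other. Over the 3 pairs the difference came to -1.0 ± 0.21 (SE of limma, adjusted p = 0.000554), made of -1.29, -1.28 and -0.42 in the IL-1b, TNFa and vehicle pairs. Without the IL-1b pair it was -0.85 and the call was lost (limma adjusted p = 0.0892).

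The other D-type cyclins gave no call. CCND1, the cyclin D that many growth signals induce, read 124984, 142353 and 142770 in YAP(5SA) cells under IL-1b, TNFa and vehicle, against 111775, 99768 and 120190 in GFP cells. Its 2 sets of readings did not overlap, and the difference was 0.31, with a 95% interval of -0.11 to 0.72 (limma, adjusted p = 0.366). The probe for CCND2 stayed below the filter, at 101 to 186 over all 6 arrays. CDK4, the kinase partner of the D-type cyclins, read 70574, 87200 and 103564 in YAP(5SA) cells under IL-1b, TNFa and vehicle, against 60618, 79999 and 66306 in GFP cells. It was higher in every pair, but the groups overlapped, and the difference was 0.33 (-0.09 to 0.75). CDK6 gave 6384, 11871 and 12509 in YAP(5SA) cells, against 7712, 8835 and 8877 in GFP cells, with the IL-1b pair opposed to the other pairs.

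The E-type cyclins, which drive entry into S phase with CDK2, gave no call. CCNE1 read 2144, 2154 and 2198 in YAP(5SA) cells under IL-1b, TNFa and vehicle, against 2267, 2868 and 2454 in GFP cells, a difference of -0.22 (-0.63 to 0.20) although the groups did not overlap. CCNE2 read 620, 872 and 1004 in YAP(5SA) cells, against 760, 562 and 748 in GFP cells, and changed sign between pairs. CDK2 gave 19486, 18696 and 14085 in YAP(5SA) cells, against 15204, 10136 and 15354 in GFP cells. Its difference of 0.37 came mostly from the TNFa pair (0.88), in which the GFP array had its lowest reading. CDC25A, the phosphatase that activates CDK2, differed by 0.15.

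Of the 3 CDK inhibitors, 2 could be tested, and neither passed. CDKN1A (p21), a p53 target that blocks cyclin-CDK complexes, had intensities of 4554, 4408 and 4632 in YAP(5SA) cells under IL-1b, TNFa and vehicle, against 3531, 3694 and 3238 in GFP cells. Every YAP(5SA) reading exceeded every GFP reading, with a difference of 0.38 and a 95% interval of -0.04 to 0.79 (limma, adjusted p = 0.241). CDKN1B (p27), whose removal by the SKP2 ubiquitin ligase permits S phase, read 7450, 7723 and 5259 in YAP(5SA) cells, against 5564, 3837 and 6131 in GFP cells. The vehicle pair ran the other way (-0.22) from the IL-1b and TNFa pairs (0.42 and 1.01), and the mean of 0.40 did not pass (limma, adjusted p = 0.248). CDKN2B (p15), an inhibitor of CDK4 and CDK6, could not be followed: its 2 probes read between -16 and 32.1 on all arrays, around 0 after the background subtraction.

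Among the transcription factors FOXM1 alone passed, and its call rests on 1 array. FOXM1, which drives genes of G2 and mitosis, read 6514, 6080 and 26560 in YAP(5SA) cells under IL-1b, TNFa and vehicle, against 5087, 3995 and 5700 in GFP cells. The 3 YAP(5SA) readings exceeded the GFP readings, 2 of them by little and the vehicle reading by far. Averaged over 3 pairs it differed by 1.06 ± 0.25 (SE of limma, adjusted p = 0.00135), made of 0.36, 0.60 and 2.22. Without the vehicle pair it was 0.48 and the call was lost (limma adjusted p = 0.178). A single probe reads the gene, so no further probe bears on that reading.

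The remaining factors gave no call. MYC, a growth-promoting factor and a recognised immediate early gene, read 6175, 6544 and 9988 in YAP(5SA) cells under IL-1b, TNFa and vehicle, against 7275, 6572 and 7180 in GFP cells, so that its vehicle reading was again the highest of the 6. E2F1, the activator E2F of the replication genes, read 945, 1049 and 1083 in YAP(5SA) cells, against 1053, 887 and 1139 in GFP cells, a difference of 0.00 (-0.41 to 0.42). E2F2, a related activator, was below its GFP readings in all 3 pairs without overlap, by -0.44 (-0.85 to -0.02; limma, adjusted p = 0.157). MYBL2 (B-MYB), the partner of the MuvB complex, read 1924, 1492 and 1583 in YAP(5SA) cells, against 1794, 2079 and 1886 in GFP cells.

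**Figure D3:**
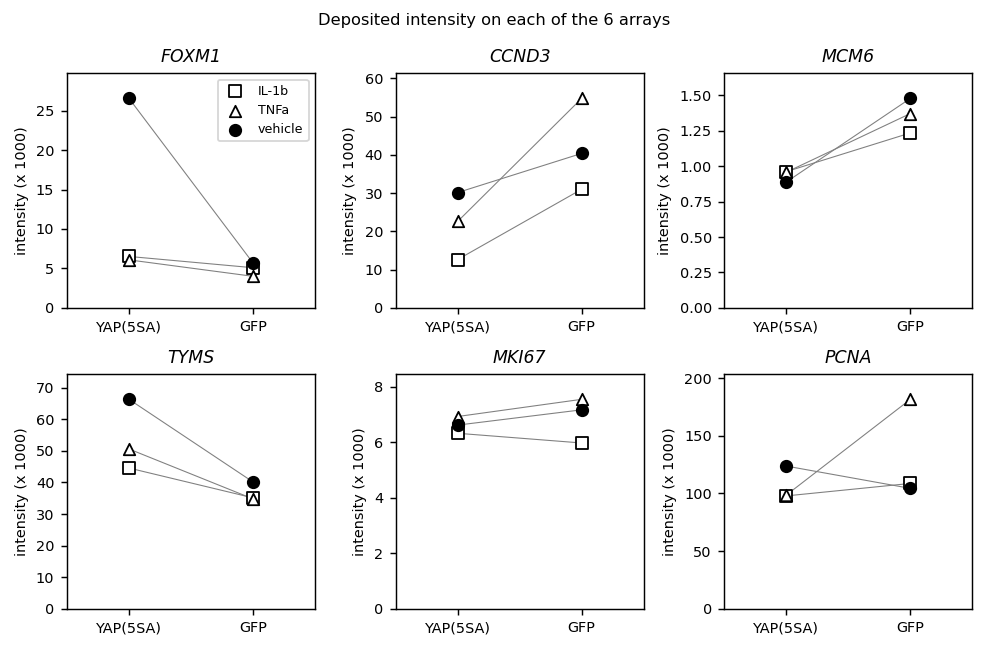
Deposited intensity (linear axis from 0) of 6 genes in the YAP(5SA) line and the GFP line; each symbol is 1 array and grey lines join arrays of the same treatment. FOXM1 has its 1 high value, 26560, with vehicle in YAP(5SA) cells, CCND3 and MCM6 lie lower in YAP(5SA) cells, TYMS higher, and MKI67 overlaps.

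Genes of DNA replication ran in both directions between the lines. Of 10 tested, 3 had a mean difference above 0 and 7 below 0, with a median of -0.11, and none passed the test. MCM6, a subunit of the replicative helicase, had intensities of 962, 958 and 889 in YAP(5SA) cells under IL-1b, TNFa and vehicle, against 1235, 1372 and 1479 in GFP cells. The groups did not overlap and the difference of -0.53 (-0.95 to -0.11) fell short of the threshold after adjustment (limma, adjusted p = 0.0734). Its fellow helicase subunits ran both ways. MCM2 read 10059, 10050 and 12981 in YAP(5SA) cells, against 8571, 8649 and 9667 in GFP cells, a difference of 0.29. MCM3, MCM4, MCM5 and MCM7 differed by 0.20, -0.19, -0.14 and -0.05, and CDC6, which loads the helicase, by -0.16.

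The enzymes of nucleotide supply and the sliding clamp gave a mixed picture. TYMS, thymidylate synthase, read 44554, 50586 and 66312 in YAP(5SA) cells under IL-1b, TNFa and vehicle, against 35122, 34794 and 40159 in GFP cells. It was higher in every pair without overlap, by 0.54 (0.12 to 0.95), and missed the threshold (limma, adjusted p = 0.0699); it passed with each array centred on its median (0.63, limma adjusted p = 0.0203) and with a variance trend and robust estimation (0.54, limma adjusted p = 0.0422). RRM2, the regulated subunit of ribonucleotide reductase, read 45770, 44766 and 50636 in YAP(5SA) cells, against 49081, 50235 and 49921 in GFP cells, a difference of -0.08 (-0.50 to 0.33). PCNA, the clamp that holds the polymerase on DNA, read 97903, 98698 and 123737 in YAP(5SA) cells, against 108710, 181664 and 104414 in GFP cells. Its highest reading was on the GFP TNFa array, which set the TNFa pair at -0.88 while the IL-1b and vehicle pairs gave -0.15 and 0.24.

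Genes of G2 and mitosis lay above 0 more often than below it, without a call. Of 16 tested, 12 had a mean difference above 0 and 4 below 0, with a median of 0.21 and a range of -0.18 to 0.50. MKI67, the Ki-67 proliferation antigen, read 6317, 6921 and 6612 in YAP(5SA) cells under IL-1b, TNFa and vehicle, against 5968, 7540 and 7162 in GFP cells. Its difference was -0.05, with a 95% interval of -0.47 to 0.36. That interval reflects variation over treatments and not between cultures, so it does not bound a difference between the lines. TOP2A, the topoisomerase that untangles replicated DNA, read 43360, 44078 and 46778 in YAP(5SA) cells, against 34611, 41665 and 44766 in GFP cells, a difference of 0.16 (-0.26 to 0.57).

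The kinases and cyclins of mitotic entry overlapped between the lines. CDK1, the mitotic kinase, read 8009, 10519 and 10342 in YAP(5SA) cells under IL-1b, TNFa and vehicle, against 10350, 11694 and 10380 in GFP cells, a difference of -0.18 (-0.59 to 0.24). CCNB1, its cyclin, read 19993, 20663 and 27441 in YAP(5SA) cells, against 17659, 23141 and 18208 in GFP cells, a difference of 0.20. PLK1, a kinase of spindle assembly, read 1476, 1298 and 1657 in YAP(5SA) cells, against 1184, 1159 and 1656 in GFP cells. AURKA, the centrosomal Aurora kinase, read 16071, 29728 and 35621 in YAP(5SA) cells, against 21227, 28472 and 24613 in GFP cells, so that the YAP(5SA) line held both the highest and the lowest of its 6 readings.

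Parts of the machinery that ends mitosis gave the largest differences in this role. UBE2C, the ubiquitin-conjugating enzyme of the anaphase-promoting complex, read 69678, 63078 and 57387 in YAP(5SA) cells under IL-1b, TNFa and vehicle, against 47676, 40277 and 46578 in GFP cells. The groups did not overlap, and the difference was 0.50 (0.08 to 0.91; limma, adjusted p = 0.0972). CDC20, the activator of that complex, differed by 0.46 (0.03 to 0.88; limma, adjusted p = 0.146). The other tested genes of this role, CCNA2, CCNB2, CDC25C, AURKB, BIRC5, BUB1, KIF11 and KIF20A, lay between -0.04 and 0.37. BUB1B, a checkpoint kinase, had 1 probe that read between -14.2 and 10 on all arrays, so it was not followed here.

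Where a gene had several probes, they differed in detail. In 8 genes 2 or 3 probes passed the filter, and the mean line differences of probes of the same gene lay up to 0.424 apart, with a median gap of 0.18. They had opposite signs in 3 genes, AURKB (-0.05 and 0.37), BIRC5 (-0.04 to 0.38) and RRM2 (-0.08 and 0.03). The UBE2C probes gave 0.26 to 0.50, and those of CDKN1A 0.12 and 0.38. For 7 of the 41 genes every YAP(5SA) reading exceeded every GFP reading, against 13.8% of all genes, and for 4 every YAP(5SA) reading lay below, against 14.4%. Some of these separations are narrow: CCNA2, the cyclin of S phase and G2, had 5918 as its lowest YAP(5SA) reading and 5896 as its highest GFP reading.

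The cell cycle genes were often highest on the YAP(5SA) vehicle array. For 23 of the 41 genes (56.1%) it held the highest of the 6 readings, against 18.7% of all genes, and among these were 11 of 16 genes of G2 and mitosis, 5 of 8 cyclins and kinases of G1 and 4 of 10 replication genes. The GFP TNFa array held the lowest reading for 16 of the 41 genes (39%), against 32.8% of all genes. Deposited median intensity over all probes ran from 335.2 to 398.1 over the 6 arrays. It was lowest, at 335.2, on the YAP(5SA) vehicle array and was 340.7 on the GFP TNFa array. The YAP(5SA) vehicle array also had only 10 probes below 0, where the other arrays had 122 to 1146. As there is 1 array per condition, the state of that culture and that array cannot be told apart. Without the vehicle pair, the median line difference of the 41 genes was 0.11 and that of all genes 0.03.

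Further genes of the cell cycle, given as lists beside the 44, held larger line differences. In the list of CDK inhibitors and growth arrest genes, 6 of 12 tested were higher in YAP(5SA) cells and 2 lower, with a median difference of 0.53, against 7.9% and 8.91% of all genes. GADD45A, a stress sensor that can hold cells in G2, had intensities of 20932, 24494 and 19346 in YAP(5SA) cells under IL-1b, TNFa and vehicle, against 5645, 6550 and 4951 in GFP cells. It rose by 1.92 ± 0.20 (limma SE, 3 pairs, adjusted p = 1.4e-09), with 1.89, 1.90 and 1.96 in the 3 pairs. CCNG1, a p53 target, rose by 1.11, the CDK inhibitor CDKN1C (p57) by 1.08 and GADD45B by 0.74. The 2 called lower were BTG1 (-0.69) and CDKN2D (-0.65), the latter also a CDK inhibitor. The calls of GADD45A, CCNG1 and CDKN1C held whichever array was left out, while that of GADD45B was lost without the IL-1b pair, where the difference was 0.81. In that fit 1023 genes were called in all, against 2077 with all arrays.

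Cell cycle turnover by ubiquitin ligases was represented by 15 tested genes, with a median of 0.02 and 1 call. SKP2, the ubiquitin ligase subunit that marks p27 for destruction, read 32406, 37113 and 32883 in YAP(5SA) cells under IL-1b, TNFa and vehicle, against 9789, 9796 and 13719 in GFP cells. It rose by 1.64 ± 0.21 (limma SE, 3 pairs, adjusted p = 8.5e-08), and it was the only one of the 15 to pass. In the list of RB, E2F and DREAM genes, 2 of 15 tested (13.3%) were called, against 16.8% of all genes: the atypical E2F repressors E2F7, which rose by 0.82, and E2F8, which fell by 0.70 on the log2 scale. The call of E2F7 was lost without the vehicle pair (0.63) and that of E2F8 without the IL-1b pair, where the difference was -0.69.

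The larger lists of replication and mitosis gave few calls, where 7.9% of all genes were called higher and 8.91% lower. Of 34 further DNA replication genes 1 was called higher and 0 lower, with a median of -0.07; the single call, RRM1, the large subunit of ribonucleotide reductase, rested on a low GFP vehicle reading. RRM1 read 63634, 75466 and 97083 in YAP(5SA) cells under IL-1b, TNFa and vehicle, against 55681, 71588 and 14527 in GFP cells, and its difference of 1.00 came to 0.13 without the vehicle pair. Of 51 further mitosis genes 2 were called higher and 0 lower, with a median of 0.18 and 38 above 0 (74.5%, against 48.5% of all genes). These were ANLN, an actin-binding protein of the cleavage furrow (0.63), and the kinesin KIF2C (0.61), and both calls were lost without the IL-1b pair, where they gave 0.73 and 0.61, and without the TNFa pair, where they gave 0.43 and 0.49. Of 9 genes of the MYC network and 10 housekeeping genes none passed, with medians of -0.15 and 0.07; in the MYC network the largest differences were those of MXD4 (-0.46) and MNT (-0.40).

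**Figure D4:**
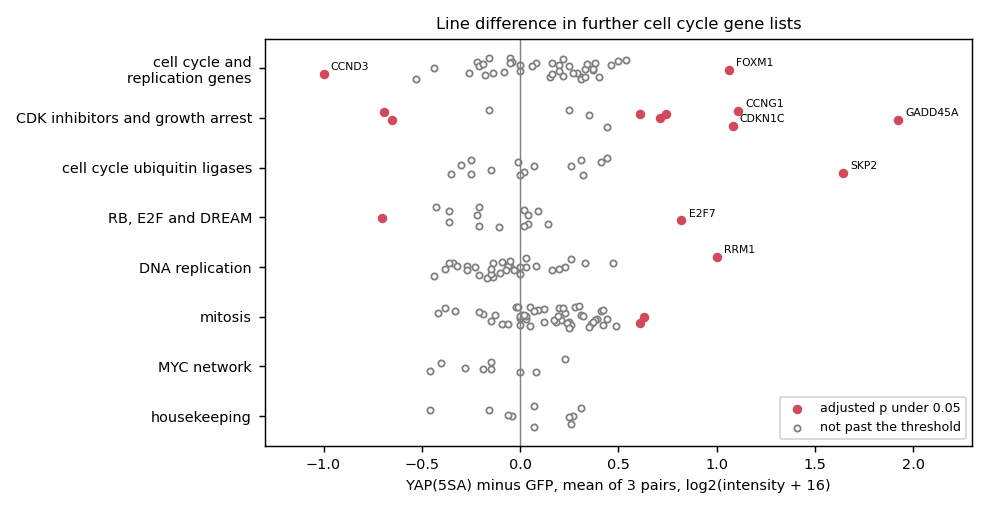
Mean line difference, YAP(5SA) minus GFP, on the log2(intensity + 16) scale for the 41 cell cycle and replication genes and the tested genes of 7 further lists; filled points had an adjusted p under 0.05, vertical scatter within a row is only for display. GADD45A (1.92), SKP2 (1.64), CCNG1 (1.11) and CDKN1C (1.08) lie far from 0. The rows of further DNA replication and mitosis genes have medians of -0.07 and 0.18.

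Genes fixed by name as checks of the line and of the treatments were read as well. AXL, a receptor tyrosine kinase, was higher by 2.02 in the YAP(5SA) line and ANKRD1, a YAP target gene, by 3.09. CCN1 and CCN2, of the same check list, were higher by 1.16 and 0.68. These differences, too, can hold anything else in which the 2 derivatives differ. ANKRD1 read 612 to 945 in YAP(5SA) cells and 52.2 to 109 in GFP cells, so it passed the filter only through the YAP(5SA) readings. The probe for YAP1 itself gave -0.73. Where that probe sits in the transcript is unknown, and it checks nothing about the transgene. The YAP1 value lost its call without the IL-1b or the vehicle pair. CCL20, a chemokine, rose by 6.07 with IL-1b and by 5.69 with TNFa, and TNFAIP3, a feedback inhibitor of NF-kB, by 3.55 and 3.69. Of 7 epithelial markers 5 passed the filter. Between the lines CDH1 (1.65) and KRT18 (0.63) were called higher, and KRT7 and KRT8 gave 0.52 and 0.58 without a call. EPCAM was called lower (-1.03) at dim readings, 122 to 211 in YAP(5SA) cells against 280 to 387 in GFP cells. Of 6 lung markers only SCGB1A1 passed, at 189 to 431, and NKX2-1 and the surfactant genes SFTPB and SFTPC stayed at or below 181, so the lung lineage genes of the label were dim. Of 7 leukocyte markers 3 passed the filter, and PTPRC, the pan-leukocyte marker, read at most 36.9. CD14 was called lower in the YAP(5SA) line (-1.61). MS4A1, at 271 to 734, was called higher with IL-1b (1.11) and with TNFa (1.08), and CD68 gave no call. Of 7 fibroblast markers 3 passed the filter, among them COL1A1, at 892 to 1696, while COL3A1 read at most 17.2. PDGFRB was called higher by 1.10 (294 to 342 in YAP(5SA) cells, against 131 to 145 in GFP cells). The summed intensity of 7 epithelial markers ran from 254762 to 309027 in YAP(5SA) cells and from 143916 to 189591 in GFP cells, most of it KRT18. That of 6 leukocyte markers ran from 2685 to 3404 in YAP(5SA) cells and from 5146 to 5773 in GFP cells, with CD14 and CD68 giving most of it. Their part in the differences above was not tested.

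After 60 min of IL-1b few cell cycle transcripts passed the test. FOXM1 was the 1 gene of 41 called lower and 0 were called higher, where 2.36% of all genes were called, 1.04% lower and 1.32% higher. The FOXM1 response was -1.09 ± 0.30 (limma SE, 2 pairs, adjusted p = 0.0414), made of -2.02 in YAP(5SA) cells and -0.16 in GFP cells, and the call was lost without the YAP(5SA) vehicle array (-0.23) or the YAP(5SA) IL-1b array (-0.57). The median response of the 41 genes was -0.16, that of all genes 0.03, and 32 of 41 (78%) had a mean response below 0, against 46.9% of all genes. In YAP(5SA) cells the median was -0.19 and in GFP cells -0.11. All responses in a line share that line's vehicle array, which in YAP(5SA) cells was the one on which these genes read high.

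Single genes other than FOXM1 gave no call with IL-1b. CCND3 changed by -0.82 (limma, adjusted p = 0.0935), with -1.25 in YAP(5SA) cells and -0.38 in GFP cells, and AURKA by -0.68 (limma, adjusted p = 0.18), with -1.15 and -0.21. MYC gave -0.34, from -0.69 in YAP(5SA) cells and 0.02 in GFP cells. CDKN1A gave 0.05, with a 95% interval of -0.46 to 0.56. The response of FOXM1 was the only one among the 41 to differ by at least 1 between the lines, -1.86 for YAP(5SA) minus GFP, a difference with no test; 2.13% of all genes differed by as much.

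With TNFa, too, few transcripts passed. FOXM1 was the 1 call among the 41 genes, lower by 1.32 on the log2 scale (limma, adjusted p = 0.0159), where 0.769% of all genes were called, 0.081% lower and 0.688% higher. It was made of -2.12 in YAP(5SA) cells and -0.51 in GFP cells, on the same vehicle arrays as the IL-1b response, and the call was lost without the YAP(5SA) vehicle array (-0.45) or the YAP(5SA) TNFa array (-0.98). The median response of the 41 genes was -0.09 and that of all genes -0.05, and 32 of 41 (78%) had a mean response below 0, against 59.6% of all genes. No other gene passed, and 40 of the 41 responses lay within 0.5 of 0, as did 11739 of the 12350 genes tested. For 4 genes the 2 lines had responses at least 1 apart, where 9.26% of all genes did: FOXM1 by -1.61, PCNA by -1.13, CDK2 by 1.01 and CDKN1B by 1.23 for YAP(5SA) minus GFP.

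**Figure D5:**
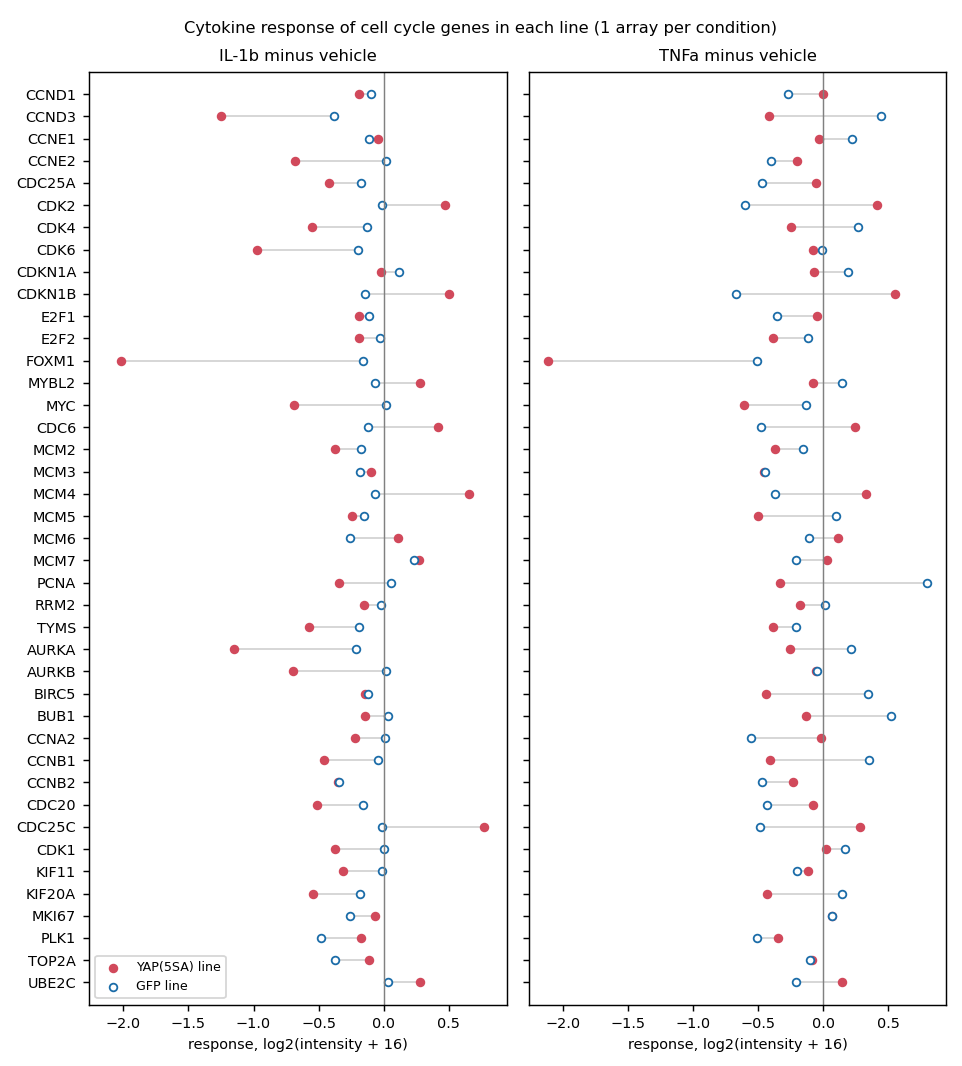
Response of each of the 41 genes to IL-1b (left) and TNFa (right), cytokine minus vehicle on the log2(intensity + 16) scale, in the YAP(5SA) line (filled) and the GFP line (open), 1 array per condition. FOXM1 lies at -2.02 and -2.12 in YAP(5SA) cells and at -0.16 and -0.51 in GFP cells; both panels share the vehicle array of each line.

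Outside the 44 genes, IL-1b raised 2 polo-like kinases, among 12 tested genes of the growth arrest list. Over all genes 1.32% were called higher with IL-1b and 1.04% lower. PLK3, a stress-responsive kinase, had intensities of 4783 with IL-1b and 2050 with vehicle in YAP(5SA) cells, and 3873 and 1674 in GFP cells. It rose by 1.21 ± 0.25 (limma SE, 2 pairs, adjusted p = 0.00438), by 1.22 and 1.20 in the YAP(5SA) and GFP lines. PLK2 rose by 1.14 (1.32 and 0.95 in the YAP(5SA) and GFP lines). Both calls were lost when either IL-1b array or the YAP(5SA) vehicle array was left out, and calls over all genes fell as well. Over all leave-out fits the values ran from 0.87 to 1.40 for PLK2 and from 1.09 to 1.32 for PLK3. ORC6, a subunit of the origin recognition complex, and NUF2, a kinetochore protein, each fell by 0.92 on the log2 scale with IL-1b, close to the threshold (limma, adjusted p = 0.0491 and 0.0468), and lost the call without the same 3 arrays. With TNFa none of the further cell cycle lists held a call, where 0.769% of all genes were called. That share is too small for the lack of calls to set these lists apart. PLK2 gave 0.99 (limma, adjusted p = 0.0519) and PLK3 0.70.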

How the data were processed

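Per the labels' protocols, Trizol RNA was amplified with amino-allyl nucleotides and Cy5 was coupled to the product, for 1-colour arrays. The authors deposited linear probe intensities with the background already subtracted, since 10 to 1146 probes per array lay below 0. The scanner, the background method and the scaling are unknown here. Gene names came from the platform annotation, matched to RefSeq by gene ID (25893 of 28264 probes had 1 gene, 0 several). Values below 0 were set to 0, 16 was added and log2 taken. The dimmest 40% of named probes (mean intensity under about 206) were left out, and the brightest probe stood for its gene. The additive model was fitted with limma 3.58.1 in R 4.3.3, with 2 residual degrees of freedom and 34.3 from the prior. In simulated data with 200 of 12350 genes changed by 1 on the log2 scale, it recovered 86% for the line, 57.5% for IL-1b and 57.5% for TNFa, a best case.

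The genes, lists and tests were chosen with earlier results of these data known. Genes named with every reading are those past the threshold, those of size 1 or more, those whose response differs by 1 between lines, and 24 fixed by name; of each further list at most 4 past the threshold are named, or the 2 largest. E2F2, MCM6, UBE2C and CDC20, and BTG1 and CDKN2D beyond the 4 of their list, were named after their values were seen. No difference in response between lines could be tested. The number of arrays limits the precision. Alternatives were other normalizations, filters, pseudocounts, probe rules, variance moderation, covariates and leaving out each array.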

Additional observations from a re-analysis of the deposited data

Results flagged for a closer look

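In 3 genes the responses to TNFa ran in opposite directions in the 2 lines and lay at least 1 apart on the log2(intensity + 16) scale; none of these differences was tested, since each condition had 1 array. CDKN1B gave 0.55 in YAP(5SA) cells and -0.67 in GFP cells, a difference of 1.23. CDK2 gave 0.41 in YAP(5SA) cells and -0.60 in GFP cells, a difference of 1.01. PCNA gave -0.33 in YAP(5SA) cells and 0.80 in GFP cells, a difference of -1.13. In all 3 the GFP TNFa array held the most extreme reading of the GFP line, the lowest for CDKN1B (3837) and CDK2 (10136) and the highest for PCNA (181664). Among all genes, 9.26% differed by at least 1, whether or not their responses were opposed, and so did 4 of the 41 genes. The share of all genes with opposed responses was not counted. The median TNFa response of all genes was 0.09 in YAP(5SA) cells and -0.19 in GFP cells. The GFP TNFa array held the lowest reading for 32.8% of all genes.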

How the results depend on the processing

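Between the lines, the 2 calls among the 41 genes became 5 with each array centred on its median (FOXM1, TYMS, UBE2C and CDC20 higher, CCND3 lower; median 0.25), 1 with every probe as a row and no filter (CCND3), 0 with no treatment term and 3 with a variance trend and robust estimation (TYMS besides); the other 7 settings gave 2. With the centring the median of all genes moved to 0.08 as well, and the median of the 41 genes stayed 0.17 above it. Leaving out each array gave 1 to 2 calls, a median of 0.11 to 0.21 and a median above that of all genes by 0.08 to 0.20. CCND3 lost its call without the IL-1b pair and FOXM1 without the vehicle pair, where CDKN1B passed instead. For IL-1b the 1 call became 0 with quantile normalization, with centring, with no filter, with the mean of probes, with every probe as a row, with a pseudocount of 1 and with no line term, and 2 with a variance trend and robust estimation. Leaving out arrays gave 0 to 2 calls, medians of -0.22 to -0.13, and medians relative to all genes of -0.32 to -0.10. For TNFa the 1 call became 0 with the same settings except the pseudocount of 1, the median was -0.04 with quantile normalization, and leaving out arrays gave 0 to 1 calls, medians of -0.22 to -0.04 and medians relative to all genes of -0.24 to -0.02. The cause of these changes was not tested. Leaving out either array of a pair gives the same line difference. Without the IL-1b pair, line calls over all genes fell too, so a call lost there is not particular to the gene named. Over all genes, calls ranged from 1023 to 2394 for the line, against 2077, from 4 to 692 for IL-1b, against 292, and from 3 to 129 for TNFa, against 95. The lines were paired by treatment in the model, and the setting with no treatment term is the unpaired fit; the labels give no replicate numbers. Probes are read without detection flags, so dim genes have no measured limit.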
